A study of Homo sapiens with 15 samples.

Results

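The 9 genes described here encode molecules by which leukocytes hold on to other cells: the immunoglobulin-type ligands ICAM1, ICAM2, ICAM3, VCAM1, ALCAM and PECAM1, the selectin ligand SELPLG, and the integrin chains ITGA4 and ITGB2. They were taken by gene symbol, and all 9 of 9 were found among the 58735 genes of the deposited count table. All 9 were also among the 16146 genes with enough counts to be tested. The RNA came from UKE-1, an established human blood cell line derived from a myeloproliferative neoplasm that had turned into acute leukaemia. There were 5 groups of 3 libraries: cells left untreated, cells given TNF-α alone, and TNF-α-stimulated cells then given MCL, ruxolitinib or MCL with ruxolitinib. Each drug group thus also carried TNF-α, and no group received a drug without it. MCL is taken here as micheliolide, a plant sesquiterpene lactone that the series title names. Ruxolitinib inhibits the kinases JAK1 and JAK2. RNA was taken 3 h after treatment, and TNF-α was meant to stand in for an inflammatory environment. The sources used here do not give drug doses, how long TNF-α acted before the drugs, or whether replicate libraries were grown as separate cultures. A p-value below therefore weighs a difference against the spread between libraries that may be technical replicates.

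Leukocytes leave the blood in steps. Selectins on the vessel wall catch carbohydrate-bearing ligands such as SELPLG (also called PSGL-1) and make cells roll, after which integrins lock onto immunoglobulin-type ligands and hold the cell in place. ITGB2 (CD18) is the beta chain shared by LFA-1 and Mac-1, which bind ICAM proteins, and ITGA4 (CD49d) pairs with a beta chain to form VLA-4, which binds VCAM1. TNF-α acts through the transcription factor NF-kB, and ICAM1 and VCAM1 are textbook NF-kB target genes of activated endothelium. ALCAM (CD166) binds CD6 or another ALCAM molecule, and PECAM1 (CD31) takes part in passage between endothelial cells.

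The promoters of the genes that TNF-α raised most among the 9 are shown because the members differ in the letters they hold there. Each sequence is the 250 bases before the transcription start in RefSeq on GRCh38.p14, 5′ to 3′ on the gene's own strand. Capitals mark matches to GGNNNTTCC, a short form of the site that NF-kB binds, or to TTCNNNGAA, a short form of the site that STAT factors bind. Both strands were searched, and the letters of the latter motif read alike on both strands. The 3 regions are chr19:10270870-10271119 for ICAM1, chr1:100719492-100719741 for VCAM1 and chr3:105366659-105366908 for ALCAM, all on the plus strand. The gene model used for counting starts ICAM1 earlier, at 10270835, so that the ICAM1 window lies inside that model. The VCAM1 and ALCAM windows end where their models begin. Distances below are to the RefSeq start.
ICAM1: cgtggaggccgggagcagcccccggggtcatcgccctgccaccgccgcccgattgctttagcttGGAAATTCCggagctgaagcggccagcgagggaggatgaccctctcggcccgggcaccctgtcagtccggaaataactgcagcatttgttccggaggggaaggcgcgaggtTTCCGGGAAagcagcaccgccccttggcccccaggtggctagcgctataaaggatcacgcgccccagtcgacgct
VCAM1: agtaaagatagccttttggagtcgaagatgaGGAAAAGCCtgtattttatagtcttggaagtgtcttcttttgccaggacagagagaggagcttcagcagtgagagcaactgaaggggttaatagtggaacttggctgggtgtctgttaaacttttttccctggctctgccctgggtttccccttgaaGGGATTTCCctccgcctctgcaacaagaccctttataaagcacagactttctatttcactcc
ALCAM: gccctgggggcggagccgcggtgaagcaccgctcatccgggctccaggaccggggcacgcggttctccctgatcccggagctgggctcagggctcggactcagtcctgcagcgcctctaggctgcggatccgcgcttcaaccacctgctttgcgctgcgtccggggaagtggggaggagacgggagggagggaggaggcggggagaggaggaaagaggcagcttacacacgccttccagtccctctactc

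In ICAM1, GGAAATTCC lies 186 to 178 bases before the start and matches GGNNNTTCC on both strands, and TTCCGGGAA lies 75 to 67 bases before it. VCAM1 holds GGGATTTCC 62 to 54 bases before the start and GGAAAAGCC, a match on the other strand, 219 to 211 bases before it. The ALCAM window holds neither pattern, and neither do the windows of ICAM3 and ITGA4, the other members with an entry. The ICAM3 and ITGA4 windows lie partly inside their counted gene models. ICAM2, PECAM1, SELPLG and ITGB2 had no entry. GGNNNTTCC was found in 17.1% of 35116 RefSeq promoter windows of 250 bases and TTCNNNGAA in 6.57%. Such matches describe letters and not binding.

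Library totals ranged from 15476399 to 18035604 counts. All 10 haematopoietic marker genes were tested, and their summed level was 3777 to 3810 CPM (counts scaled to a common library size) in untreated cells and 3933 to 3995 after TNF-α. Under MCL it was 3292 to 3341, under ruxolitinib 3897 to 3943 and under both drugs 2650 to 2729 CPM. Of 8 endothelial markers 7 were tested, and their sum went from 574 to 594 CPM in untreated cells to 506 to 528 with TNF-α, 450.3 to 454.7 with MCL, 464 to 484 with ruxolitinib and 448 to 455 with both drugs. Most of it came from TIE1, CDH5 and VWF, at 271, 257 and 46.3 CPM in untreated cells, while EMCN and CLDN5 were at 0.177 and 0.201 CPM. The endothelial sum was lower in each TNF-α group than in untreated cells, and its part in the results was not tested. Fibroblast markers summed to at most 1.8 CPM, with LUM at 0, T cell markers to 12.1 to 23.0 CPM, with TRAT1 at 0, and B cell markers to 25.7 to 35.1 CPM, with MS4A1 at 0.

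TNF-α raised 3 of the 9 genes many-fold, lowered 4 (log2 changes from -0.72 to -0.10) and left 2 without a call. Over all tested genes 26.6% passed in this comparison, 14.1% higher and 12.5% lower (53% of the calls were higher, and 42.4% with library totals in TMM's place), and the median log2 change was 0.07 for the members and 0.00 (0.00459) for all tested genes. ICAM1 (chr19:10270835-10286615, plus strand, hg38 as in the deposited table), the ligand of LFA-1 and Mac-1, stood at 19.6, 17.6 and 18.2 CPM in untreated libraries and at 363, 366 and 391 CPM with TNF-α. The groups lay far apart, and the log2 fold change was 4.34 ± 0.05 (SE, n = 3 against 3, edgeR adjusted p = 9.49e-61), or 20.2-fold. In bulk RNA, fewer cells with a transcript and less of it per cell cannot be told apart, here and throughout.

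VCAM1 (chr1:100719742-100739045, plus strand), the ligand of VLA-4, had 0, 1 and 1 counts in the untreated libraries and 212, 234 and 254 counts with TNF-α. It passed the filter on low counts through the stimulated groups. The ratio of summed counts per library size was 371. Its 95% exact counting interval, which leaves out other error, ran from 102 to 3069. Because the filter kept VCAM1 through groups where it was high, its edgeR adjusted p (7.03e-32) is given as a description. ALCAM (chr3:105366909-105576900, plus strand) went from 0.499, 0.611 and 0.774 CPM to 19.7, 18.3 and 17.5 CPM, a 29.5-fold rise (log2 4.86 ± 0.18, edgeR adjusted p = 3.32e-32). At 8, 11 and 13 counts in the untreated libraries, ALCAM also needed the stimulated groups to pass the filter. Its p-values against untreated cells are likewise descriptions. The libraries of 7 members did not overlap between these groups, the 3 above and the 4 below, as for 38.8% of tested genes. VCAM1 and ALCAM were close to silent before stimulation and reached similar levels after it, while ICAM1 started from a measurable base.

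**Figure D1:**
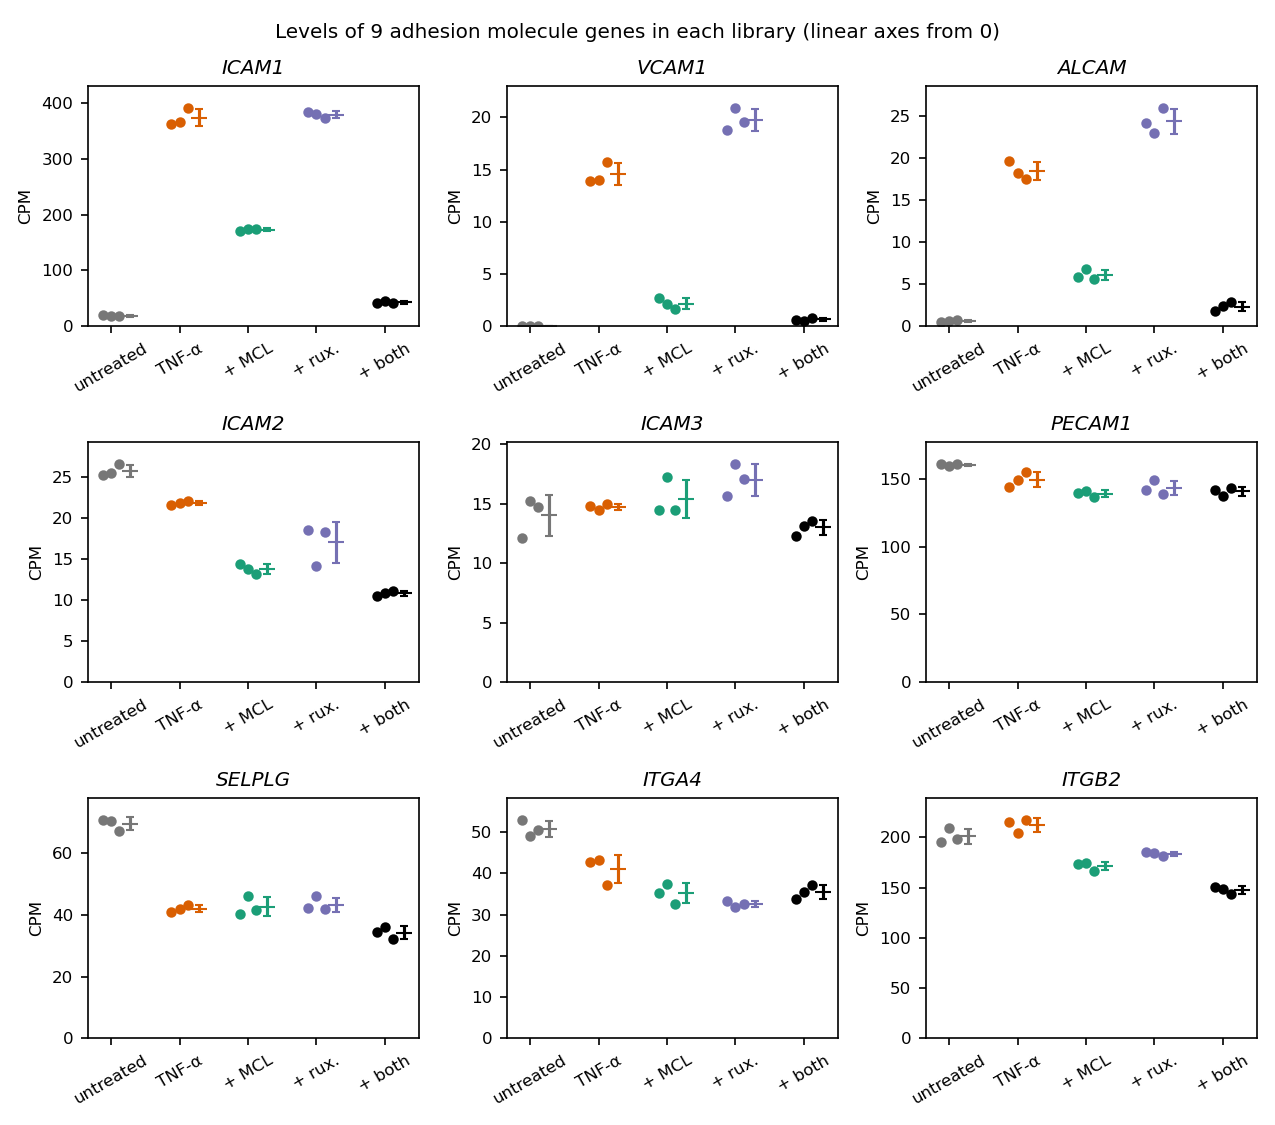
Level of each of the 9 genes in CPM (vertical axes, linear, from 0) in untreated cells and in the 4 TNF-α groups; points are the 3 libraries and the bar beside them is the mean ± SD. ICAM1, VCAM1 and ALCAM rise with TNF-α, keep that level or exceed it with ruxolitinib, are lower with MCL and are lowest of the TNF-α groups with both drugs, while the other 6 genes move over a narrower range.

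MCL lowered all 3 of these genes, while under ruxolitinib ICAM1 had no call and the other two rose. The drug comparisons share the TNF-α libraries. Across the 9 members MCL against TNF-α gave 0 higher, 7 lower and 2 not passing (median log2 change -0.31, against -0.02 over all tested genes), where 26% of tested genes passed, 10.9% higher and 15.1% lower (41.8% of the calls were higher, and 53.7% with library totals). With MCL, ICAM1 read 170.05, 174.1 and 174.3 CPM (log2 change against TNF-α -1.11 ± 0.04, edgeR adjusted p = 3.22e-34). VCAM1 read 2.71, 2.15 and 1.67 CPM, against 13.9, 14.1 and 15.8 CPM with TNF-α (-2.73 ± 0.16, edgeR adjusted p = 2.83e-22), and ALCAM read 5.84, 6.86 and 5.69 CPM (-1.59 ± 0.12, edgeR adjusted p = 4.44e-17). No MCL library of the 3 genes overlapped a TNF-α library, and 6 members in all did not overlap, where 39% of tested genes did not. Against untreated cells they remained higher, ICAM1 by 3.23 ± 0.05 and ALCAM by 3.26 ± 0.22 on the log2 scale (edgeR adjusted p = 5.13e-53 and 5.14e-20).

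Ruxolitinib against TNF-α gave 2 members higher, 3 lower and 4 not passing (median log2 change 0.02, against -0.01 over all tested genes), where 15.7% of tested genes passed, 5.15% higher and 10.6% lower (32.8% of the calls were higher, and 45.4% with library totals). ICAM1 stood at 384, 379.9 and 373 CPM, within the range of the TNF-α libraries (0.02 ± 0.04, edgeR adjusted p = 0.776). VCAM1 was at 18.8, 20.9 and 19.6 CPM and ALCAM at 24.2, 23.0 and 26.0 CPM, all above the TNF-α libraries (6 members did not overlap in this comparison, as for 29.7% of tested genes). VCAM1 rose by 0.44 ± 0.12 and ALCAM by 0.40 ± 0.10 on the log2 scale (edgeR adjusted p = 0.00574 and 0.00343). Set against each other, the drugs differed in all 3 genes, with log2 differences of MCL from ruxolitinib of -1.13 (ICAM1), -3.17 (VCAM1) and -2.00 (ALCAM) (edgeR adjusted p = 8.92e-35, 4.93e-26 and 6.84e-22). In that comparison 27.5% of tested genes passed, 13.1% lower, and 5 of the 9 members were lower with MCL, 0 higher.

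**Figure D2:**
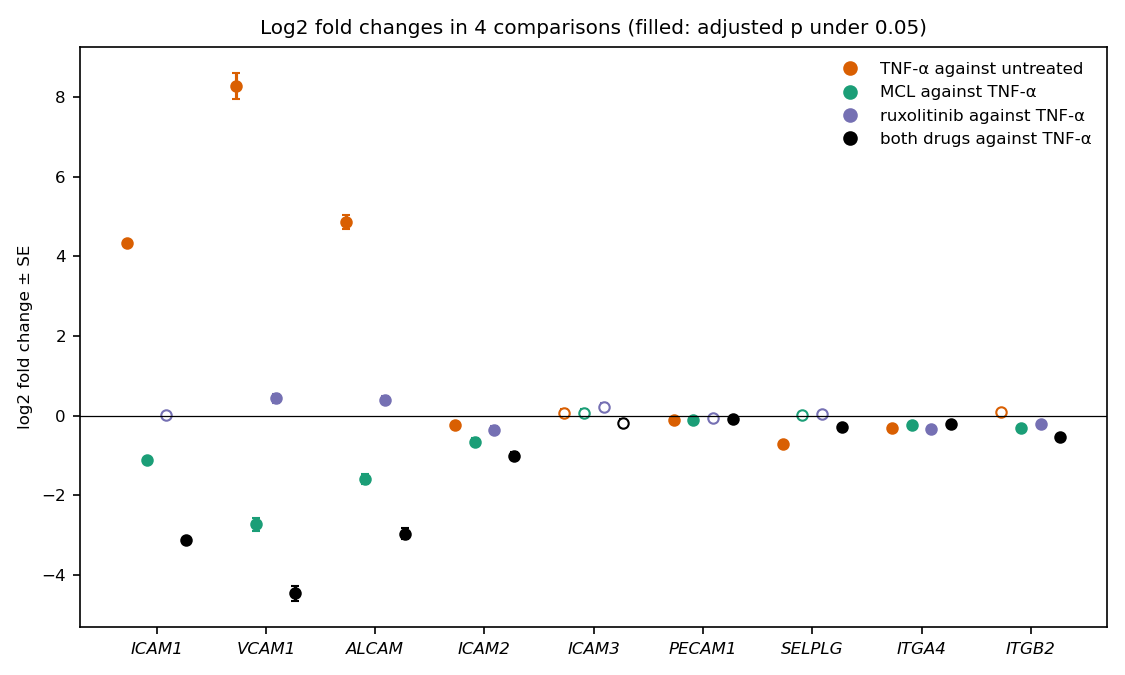
Log2 fold change ± SE (vertical axis) of each gene in 4 comparisons, with filled points for an adjusted p under 0.05 and open points otherwise. The VCAM1 bar with TNF-α rests on 2 untreated counts and is narrower than its counting interval, 102-fold to 3069-fold. ICAM1, VCAM1 and ALCAM are at 4.34 or higher with TNF-α and at -2.97 or lower with both drugs, while every other point lies between -1.11 and 0.5 apart from the MCL points of VCAM1, at -2.73, and ALCAM, at -1.59.

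With both drugs the 3 genes were at their lowest among the stimulated groups and still above untreated cells. ICAM1 was at 42.1, 45.6 and 41.3 CPM, 8.69-fold below TNF-α alone (log2 change -3.12 ± 0.04, edgeR adjusted p = 3.7e-56). VCAM1 had 11, 9 and 15 counts, or 0.637, 0.491 and 0.835 CPM (-4.46 ± 0.20, edgeR adjusted p = 2.74e-29), and ALCAM was at 1.80, 2.40 and 2.84 CPM (-2.97 ± 0.14, edgeR adjusted p = 1.71e-27). The both-drug counts alone did not carry VCAM1 through the filter, so its p-values with both drugs are likewise descriptions. All libraries of the 3 genes lay below those with MCL alone and above those of untreated cells. Against MCL 0 members were higher and 6 lower, where 41.6% of tested genes passed and 22% were lower, and 7 members did not overlap, as for 48.9% of tested genes. Against untreated cells ICAM1 stayed 2.33-fold higher and ALCAM 3.74-fold higher (edgeR adjusted p = 9.44e-28 and 4.41e-09), and VCAM1 had 35 counts against 2, a ratio of 16.6 (95% exact counting interval 4.27 to 143). Over all 9 members 0 were higher, 8 lower and 1 not passing against TNF-α (median -0.53, against -0.03 over all tested genes). In this comparison 54.8% of tested genes passed, 25.5% higher and 29.3% lower (46.5% of the calls were higher, and 56.6% with library totals), and 60.6% did not overlap, against 8 members. The haematopoietic marker sum was also lowest in this group, as given above, and its part in these falls was not tested. Every marker in that sum had a lower mean than with TNF-α, but by unequal amounts. GATA2 went from 551 CPM with TNF-α to 128 with both drugs and CD34 from 1251 to 983. PTPRC went from 348 to 325 CPM and RUNX1 from 180 to 174.

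Expressed as a share of the mean rise in CPM that TNF-α brought, ICAM1 kept 43.5% ± 0.675 of its rise with MCL (SD, n = 3), 101.6% ± 1.57 with ruxolitinib and 6.91% ± 0.657 with both drugs. VCAM1 kept 14.7% ± 3.59, 135.5% ± 7.51 and 4.23% ± 1.19 in that order. ALCAM kept 30.8% ± 3.56, 133.1% ± 8.59 and 9.61% ± 2.93. These SD hold the spread of the drug libraries only, as the untreated and TNF-α means were taken as fixed. The TNF-α libraries themselves varied, for ICAM1 with an SD of 15.4 CPM around 373 CPM. The 3 genes thus shared an order of groups, with MCL leaving more of the rise in ICAM1 than in VCAM1, a difference between genes that was not tested.

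**Figure D3:**
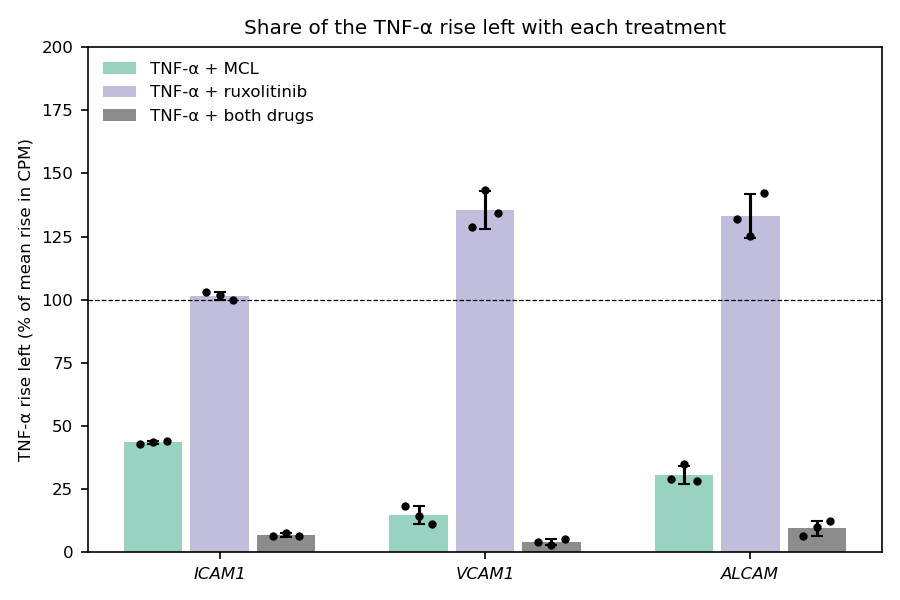
Share of the TNF-α rise (vertical axis, % of the mean rise in CPM over untreated cells, from 0) left with MCL, ruxolitinib or both drugs; bars are means, error bars the SD of 3 libraries, points the libraries and the dashed line TNF-α alone. All libraries with both drugs lie at 12.4% or lower, and those with ruxolitinib lie between 99.9% and 143.5%. The error bars leave out the spread of the untreated and TNF-α libraries.

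The fall of the 3 genes with both drugs was larger than the single-drug fold changes multiplied together. The non-additive effect takes the summed log2 changes of the single drugs away from the log2 change of the combination, each measured against TNF-α. It is 0 where the fold changes multiply and negative where the combination lowered a gene further. If the fold changes had multiplied, ICAM1 would have been at 175 CPM with both drugs, where 43.0 ± 2.33 CPM was measured (non-additive effect -2.03 ± 0.06, edgeR adjusted p = 4.89e-38). The product for VCAM1 was 2.95 CPM against 0.655 ± 0.173 measured (-2.17 ± 0.29, edgeR adjusted p = 2.02e-08, given as a description), and that for ALCAM 8.08 against 2.35 ± 0.524 CPM (-1.78 ± 0.19, edgeR adjusted p = 3.66e-11). Added to MCL, ruxolitinib lowered ICAM1 a further 4.02-fold (edgeR adjusted p = 2.31e-44), while ruxolitinib alone left it without a call against TNF-α.

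Among the other members SELPLG, ICAM3 and ITGA4 also passed for this effect. SELPLG was at -0.36 ± 0.09 and ICAM3 at -0.45 ± 0.14 (edgeR adjusted p = 0.00136 and 0.0153), while ITGA4 was at 0.35 ± 0.09 (edgeR adjusted p = 0.00358), meaning that it fell less with both drugs than the product of the single effects. Of the 9 members 1 was higher, 5 lower and 3 not passing, where 25% of tested genes passed, 12.2% higher and 12.8% lower. The call for ICAM3 was lost without MCL replicate 2 (-0.37, edgeR adjusted p = 0.0726) and without ruxolitinib replicate 2 (-0.40, edgeR adjusted p = 0.051).

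**Figure D4:**
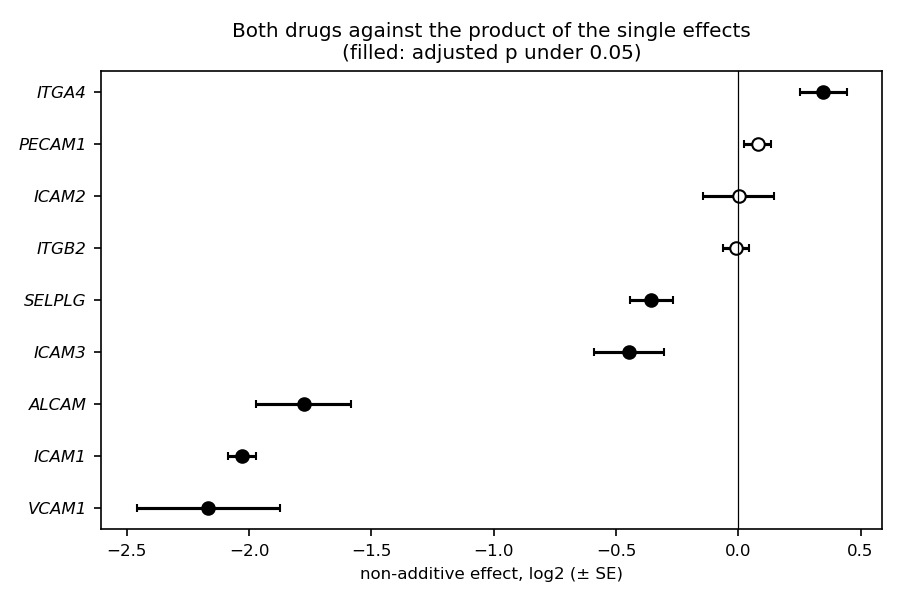
Non-additive effect of the drugs on the log2 scale ± SE (horizontal axis) for each gene, ordered by size, with filled points for an adjusted p under 0.05. VCAM1, ICAM1 and ALCAM lie between -2.17 and -1.78, SELPLG and ICAM3 between -0.45 and -0.36, and ITGA4 at 0.35.

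The integrin chains that bind these ligands moved far less. ITGB2 (chr21:44885953-44931989, minus strand) was at 196, 209 and 198 CPM in untreated cells and at 215, 205 and 217 CPM with TNF-α, ranges that overlapped (0.08 ± 0.04, edgeR adjusted p = 0.107). It fell with each drug, to 174, 174 and 167 CPM with MCL (-0.31 ± 0.04, edgeR adjusted p = 5.73e-10) and to 186, 184 and 181 CPM with ruxolitinib (-0.21 ± 0.04, edgeR adjusted p = 1.34e-05). With both drugs it reached 150.1, 149 and 143 CPM (-0.53 ± 0.04, edgeR adjusted p = 2.99e-19), close to the product of the single effects, 148 CPM. An antisense gene, ITGB2-AS1, overlaps it and was at 1.02 ± 0.266 CPM in untreated cells, 2.66 ± 0.450 with TNF-α and 0.704 ± 0.388 with both drugs. The sources used here do not say whether counting used strand, so that reads of the pair cannot be told apart.

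ITGA4 (chr2:181457202-181536187, plus strand) fell with TNF-α, from 53.0, 49.2 and 50.4 CPM to 42.8, 43.4 and 37.1 CPM (-0.31 ± 0.06, edgeR adjusted p = 8.6e-05). It was lower still with ruxolitinib, at 33.4, 31.8 and 32.5 CPM (-0.33 ± 0.07 against TNF-α, edgeR adjusted p = 0.000114). With MCL and with both drugs it was at 35.2 ± 2.40 and 35.5 ± 1.65 CPM, and these libraries overlapped those with TNF-α. The MCL call (-0.22, edgeR adjusted p = 0.00754) was lost without TNF-α replicate 1 (-0.19, edgeR adjusted p = 0.0588), TNF-α replicate 2 (-0.18, edgeR adjusted p = 0.0837) or MCL replicate 3 (-0.17, edgeR adjusted p = 0.087). The call with both drugs (-0.21, edgeR adjusted p = 0.00475) was lost without TNF-α replicate 2 (-0.16, edgeR adjusted p = 0.0578) and when library totals replaced TMM scaling (edgeR's factors for library composition) (-0.14, edgeR adjusted p = 0.0724).

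SELPLG (chr12:108622277-108633959, minus strand), which P-selectin binds, fell with TNF-α and did not return with either drug alone. It was at 70.8, 70.6 and 67.1 CPM in untreated cells and at 41.0, 42.0 and 43.0 CPM with TNF-α (-0.72 ± 0.06, edgeR adjusted p = 2.73e-16). MCL (42.7 ± 2.98 CPM, 0.02 ± 0.06, edgeR adjusted p = 0.862) and ruxolitinib (43.3 ± 2.32 CPM, 0.04 ± 0.06, edgeR adjusted p = 0.749) gave no call, and their libraries overlapped those with TNF-α. With both drugs it dropped to 34.5, 36.2 and 32.1 CPM, below every TNF-α library (-0.30 ± 0.06, edgeR adjusted p = 5.46e-05).

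ICAM2, a ligand of LFA-1 that resting endothelium and blood cells carry, went down where ICAM1 went up. The gene lies at chr17:64002594-64020634 on the minus strand. It stood at 25.3, 25.4 and 26.6 CPM in untreated cells, 21.6, 21.8 and 22.1 CPM after TNF-α, 14.5, 13.8 and 13.2 CPM under MCL, 18.6, 14.2 and 18.4 CPM under ruxolitinib, and 10.5, 10.9 and 11.1 CPM with both drugs. MCL lowered it by 0.66 ± 0.09 and both drugs lowered it by 1.01 ± 0.10 (edgeR adjusted p = 6.28e-08 and 3.93e-14). The product of the single effects was 10.8 CPM, where 10.8 ± 0.269 was measured (non-additive effect 0.00 ± 0.15, log2 0.00121, edgeR adjusted p = 0.997). The ruxolitinib call (-0.36, edgeR adjusted p = 0.0032) rested on ruxolitinib replicate 2 and was lost without it (-0.22, edgeR adjusted p = 0.122). The call with TNF-α (-0.24, edgeR adjusted p = 0.0313) was lost when any library but untreated replicate 1 was left out, with adjusted p from 0.0505 to 0.0993, while the log2 change stayed between -0.27 and -0.22 in all 6 cases. ICAM2 overlaps PRR29 on the opposite strand, which was at 7.13 ± 0.669 CPM after TNF-α and at 2.37 ± 0.178 CPM after both drugs, and the reads of the pair cannot be told apart.

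ICAM3, the ICAM of resting leukocytes, did not follow ICAM1, although both lie on chromosome 19 and are 47.2 kb apart. It lies at chr19:10333776-10339823 on the minus strand. ICAM3 was at 12.1, 15.3 and 14.7 CPM in untreated cells and at 14.8, 14.5 and 14.97 CPM with TNF-α (0.07 ± 0.10, edgeR adjusted p = 0.695). With MCL it was at 15.4 ± 1.59 CPM, with ruxolitinib at 17.0 ± 1.36 CPM and with both drugs at 13.0 ± 0.632 CPM, and none of these passed against TNF-α (edgeR adjusted p = 0.717, 0.171 and 0.14). Both drugs against ruxolitinib did pass (-0.39 ± 0.10, edgeR adjusted p = 0.00094), a comparison in which 51.7% of tested genes passed and 26.8% were lower, with 7 members lower and 0 higher. Between these genes ICAM4 had 0 counts in every library, and ICAM5, named after its values were seen, went from 16.7 ± 1.90 CPM in untreated cells to 26.2 ± 1.54 after TNF-α, 18.2 ± 1.70 under MCL, 31.4 ± 3.22 with ruxolitinib and 16.4 ± 1.62 with both drugs.

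PECAM1 (chr17:64319415-64413776, minus strand) varied least among the 9 genes in the ratio of its highest to its lowest group mean. It was at 161, 159 and 161 CPM in untreated cells, 144, 149 and 155 CPM with TNF-α, and 138.9 ± 2.48, 143 ± 5.22 and 141 ± 3.10 CPM with MCL, ruxolitinib and both drugs. Its calls with TNF-α (-0.10, edgeR adjusted p = 0.0418), with MCL (-0.10, edgeR adjusted p = 0.0388) and with both drugs (-0.09, edgeR adjusted p = 0.0493) each lay near the threshold. Each was lost when any of 5 of the 6 libraries compared was left out, with adjusted p up to 0.209, 0.268 and 0.295. The library whose omission kept the call was TNF-α replicate 3 in the first comparison and TNF-α replicate 1 in the other 2. The MCL and both-drug calls were also lost with DESeq2 size factors, library totals, no filter, DESeq2 and a fit of only the groups compared, with adjusted p from 0.0703 to 0.273 for MCL and from 0.0898 to 0.821 for both drugs. With library totals the change with both drugs was -0.01 (-0.0115) and that with MCL -0.07. The both-drug call was lost with the replicate block as well (-0.09, edgeR adjusted p = 0.0537).

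Against untreated cells, 3 members were higher and 5 lower with MCL (34.1% of tested genes passed), 4 higher and 5 lower with ruxolitinib (36.8% passed) and 3 higher and 5 lower with both drugs (57.4% passed). ICAM1, VCAM1 and ALCAM were the higher ones in each, where the calls of VCAM1 and ALCAM are descriptions, as given above. The fourth with ruxolitinib was ICAM3 (0.28, edgeR adjusted p = 0.0239), a call lost without untreated replicate 1 or ruxolitinib replicate 2 or 3 (edgeR adjusted p up to 0.199). ICAM2, PECAM1, SELPLG, ITGA4 and ITGB2 were the lower ones in each. The ITGB2 call with ruxolitinib (-0.13, edgeR adjusted p = 0.00353) was lost without untreated replicate 2 (-0.10, edgeR adjusted p = 0.0503). With both drugs the libraries of 8 members did not overlap those of untreated cells, as for 61.7% of tested genes.

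Levels of different genes were compared as CPM per kb of gene model. In untreated cells ITGB2 was highest, at 29.6 ± 1.04 CPM per kb, followed by SELPLG at 27.9 ± 0.836, PECAM1 at 20.7 ± 0.117, ICAM2 at 7.95 ± 0.222, ITGA4 at 6.44 ± 0.248, ICAM1 at 4.98 ± 0.279 and ICAM3 at 4.76 ± 0.575. ALCAM and VCAM1 came last, at 0.0875 ± 0.0193 and 0.00634 ± 0.00550 CPM per kb. With TNF-α ICAM1 moved to the top, at 101 ± 4.16 CPM per kb, and ALCAM and VCAM1 reached 2.58 ± 0.151 and 2.41 ± 0.170 CPM per kb. With ruxolitinib ICAM1 was again first, at 102 ± 1.502 CPM per kb, and ALCAM and VCAM1 were at 3.40 ± 0.214 and 3.27 ± 0.181. With MCL ICAM1 was still first, at 46.6 ± 0.646 CPM per kb, while ALCAM and VCAM1 were at 0.853 ± 0.0886 and 0.360 ± 0.0864, apart from each other. With both drugs ICAM1 was the fourth, at 11.6 ± 0.629 CPM per kb, below ITGB2, PECAM1 and SELPLG. The libraries of neighbours in these orders overlapped for ICAM1 and ICAM3 in untreated cells, for ITGA4 and ICAM3 and for ALCAM and VCAM1 with TNF-α, and for ITGA4 and ICAM3 with both drugs. They also overlapped for PECAM1 and SELPLG with each drug alone, for ITGA4 and ICAM2 with MCL, and for ICAM3 and ICAM2 and for ALCAM and VCAM1 with ruxolitinib.

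Patterns were compared by Pearson's r of log2 CPM over the 15 libraries, which share groups and scaling, so that r is given as a description. Among 2201 protein-coding genes whose group means spanned at least 1 on the log2 scale, VCAM1 was most like ALCAM (r = 0.994), and ALCAM was most like VCAM1 and then EBI3, a cytokine subunit (r = 0.994). For ICAM1 the nearest were the formin FMNL3 (r = 0.998), the interferon-gamma receptor chain IFNGR2 (r = 0.997), the NF-kB cofactor BCL3 (r = 0.996) and IGDCC3 (r = 0.996). IFNGR2 was at 6.78, 51.4, 32.3, 50.6 and 11.7 CPM in untreated, TNF-α, MCL, ruxolitinib and both-drug cells. ICAM2 was nearest to HES1 (r = 0.977), a transcription factor gene of the Notch pathway that was at 10.3, 5.19, 1.48, 2.95 and 0.747 CPM in that order of groups, and SELPLG to ID3 (r = 0.953), an inhibitor of helix-loop-helix factors.

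Other genes of adhesion were taken as 4 lists. Of 13 tested integrin chains, 2 rose and 4 fell with TNF-α (median log2 change 0.01). Against TNF-α, 1 rose and 5 fell with MCL (-0.12) and 0 rose and 5 fell with ruxolitinib (-0.12). With both drugs 1 rose and 6 fell (-0.20). The passing shares were 46.2%, 46.2%, 38.5% and 53.8% with TNF-α, MCL, ruxolitinib and both drugs. Over all tested genes they were 26.6%, 26%, 15.7% and 54.8%, so that the both-drug share of the list was near that of all genes. ITGAV, the alpha chain of vitronectin receptors, rose with TNF-α from 71.8 ± 3.24 to 116 ± 5.33 CPM (edgeR adjusted p = 1.62e-19). ITGA6, a laminin receptor chain, fell from 524 ± 4.08 to 344 ± 6.72 CPM (edgeR adjusted p = 5.28e-24) and further to 225 ± 6.38 CPM with both drugs (edgeR adjusted p = 5.29e-24). ITGAM, the alpha chain of Mac-1, which pairs with ITGB2, rose from 11.03 ± 1.61 to 19.3 ± 2.82 CPM with TNF-α (log2 0.80 ± 0.12) and changed by -0.76 with MCL, by -0.64 with ruxolitinib and by -1.15 with both drugs, all past the threshold.

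Of 12 tested selectins and genes that build or carry selectin ligands, 6 rose and 1 fell with TNF-α (median 0.15). Against TNF-α, 0 rose and 5 fell with MCL (-0.12) and 0 rose and 2 fell with ruxolitinib (-0.04). With both drugs 2 rose and 7 fell (-0.52). The passing shares were 58.3%, 41.7%, 16.7% and 75% in that order, where 26.6%, 26%, 15.7% and 54.8% of all tested genes passed. The ruxolitinib share was thus near that of all genes. The sulfotransferase gene CHST2, whose enzyme modifies selectin ligands, was at 12.7 ± 1.01 CPM in untreated cells, 51.4 ± 1.91 after TNF-α, 17.3 ± 1.04 under MCL, 51.9 ± 4.18 with ruxolitinib and 4.19 ± 0.413 with both drugs. Its non-additive effect was -2.05 ± 0.13 (edgeR adjusted p = 1.59e-20), and with both drugs it was below untreated cells (-1.60 ± 0.11, edgeR adjusted p = 3.73e-19). The sialyltransferase gene ST3GAL4 rose by 1.05 with TNF-α on the log2 scale and changed by -0.47 with MCL and by -1.60 with both drugs. CD44, a hyaluronan receptor, was at 1291 ± 32.2 CPM after TNF-α, 801 ± 4.95 with ruxolitinib and 801 ± 13.0 with both drugs (edgeR adjusted p = 2.34e-28 and 1.11e-29). SELE, the endothelial selectin, was too low for the rule on named genes and is given because its values stood out: 2 counts in the untreated libraries together, 161 after TNF-α, 28 under MCL, 216 with ruxolitinib and 4 with both drugs.

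Of 18 tested other adhesion and transmigration genes, 8 rose and 3 fell with TNF-α (median 0.19). Against TNF-α, 1 rose and 10 fell with MCL (-0.24) and 1 rose and 7 fell with ruxolitinib (-0.04). With both drugs 2 rose and 14 fell (-0.51). The passing shares were 61.1%, 61.1%, 44.4% and 88.9% in that order, where 26.6%, 26%, 15.7% and 54.8% of all tested genes passed. CD58, the ligand of CD2, rose with TNF-α from 9.25 ± 0.507 to 28.3 ± 1.24 CPM (edgeR adjusted p = 3.37e-22) and fell to 12.2 ± 1.27 CPM with both drugs (edgeR adjusted p = 3.79e-18). Among the 17 genes by which cells activate integrins, 3 rose and 7 fell with TNF-α (median -0.09). Against TNF-α, 2 rose and 9 fell with MCL (-0.08) and 2 rose and 7 fell with ruxolitinib (-0.05). With both drugs 4 rose and 11 fell (-0.17). Here the passing shares were 58.8%, 64.7%, 52.9% and 88.2% in that order. RASSF5, an effector of the GTPase RAP1, was at 51.2 ± 2.68 CPM after TNF-α and fell to 30.9 ± 2.54 with MCL and 19.8 ± 1.46 with both drugs (edgeR adjusted p = 2.63e-14 and 3.32e-26). RAP1B fell with TNF-α, from 482 ± 9.39 CPM in untreated cells to 406 ± 5.01 CPM (edgeR adjusted p = 3.53e-09). With MCL it rose again, to 511 ± 16.7 CPM (edgeR adjusted p = 4.38e-13). These counts stand against the shares of all tested genes given above for each comparison.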

How the data were processed

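The authors deposited 1 table of unnormalized counts (whole reads for each gene in each library). The submitters' processing notes name HISAT2 2.0.5, featureCounts 1.5.0-p3 and DESeq2 1.16.1 as tools and hg38 and mm10 as builds, with no role or order; the sources used here do not give strand use or read filters. Gene lengths were used as deposited, per the file headers. Starts and ends of 58735 of 58735 genes equalled those of GENCODE 29 on hg38. The control columns were read as untreated cells, the 1 group with neither TNF-α nor a drug.

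The filterByExpr step of edgeR (minimum count 10) left 16146 genes. One model over 15 libraries with a coefficient per group was fitted with edgeR 4.0.16 in R 4.3.3 (TMM scaling, robust quasi-likelihood F-test, Benjamini-Hochberg adjustment over all tested genes, threshold 0.05, 10 residual degrees of freedom), and gave 10 comparisons of 2 groups and the non-additive effect. The F-test also draws on the spread of the other genes, so that its p-values rest on more than the 10 residual degrees of freedom. Standard errors were taken from each log2 fold change and its F value. CPM use TMM-scaled library sizes. Errors are SD of 3 libraries unless SE is written. The biological coefficient of variation was 0.04, so that small changes pass. Pairs of libraries of a group differed by more than sampling noise (chi-square per degree of freedom 2.02 to 4.07).

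Alternatives were DESeq2 size factors, library totals, no filter, DESeq2 1.42.0, a fit of the groups compared, the replicate number as a block and leaving out each library. On counts simulated for TNF-α against untreated (15780 genes), 92% of genes changed 4-fold, 72% changed 2-fold, 58% changed 1.5-fold and 40% changed 1.25-fold were recovered, with 7 false calls. For the non-additive effect (15773 genes) the shares were 84%, 66%, 56% and 34%, with 9 false calls. Few genes were changed in these simulations, as many raised as lowered. They therefore do not show how calls fare where many genes change, as in these data.

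The 9 members, the lists and the motifs were chosen with earlier results of these data known. Named genes outside the members were the up to 3 genes of each list with the smallest p among those that passed at a mean of at least 5 CPM, from which examples are given, and the 4 genes nearest in pattern to each member whose group means spanned at least 1 on the log2 scale.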

Additional observations from a re-analysis of the deposited data

Results flagged for a closer look

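The effect of MCL differed between cells with and without ruxolitinib in 6 of the 9 genes, by the test of that difference itself (the non-additive effect, edgeR). On the log2 scale the difference was -2.03 for ICAM1, -2.17 for VCAM1, -1.78 for ALCAM, -0.45 for ICAM3, -0.36 for SELPLG and 0.35 for ITGA4. The VCAM1 call is a description, for the reason given above. Over all tested genes 25% passed this test.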

How the results depend on the processing

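Of 99 results for single members, 76 passed the test. Of these, 64 kept their call and direction under every alternative that gave a value. Among them were all 32 that passed for ICAM1, VCAM1 and ALCAM. The calls of VCAM1 and ALCAM against untreated cells and of VCAM1 with both drugs are descriptions, as given above. That these calls were kept says little on how firm they are. VCAM1 with both drugs against untreated is counted among the 32, although it had no value in a fit of only the groups compared. The other 12 lost the call under at least 1 alternative, and 3 that had not passed did so under at least 1; no result that passed changed sign. With the replicate number as a block (replicate block), PECAM1 with both drugs against TNF-α lost its call (-0.09, edgeR adjusted p = 0.0537) and ICAM3 with both drugs against MCL gained one (-0.24, edgeR adjusted p = 0.0456). The block changed no other call; libraries with one number in different groups deviated with correlations from -0.05 to 0.05, so that the numbers were not taken as pairs. With a library left out, 5 to 6 members passed for TNF-α against untreated cells, where 7 did in the main fit. Against TNF-α, 5 to 6 passed with MCL (7 in the main fit), 4 to 5 with ruxolitinib (5) and 6 to 8 with both drugs (8). The members lower with MCL than with ruxolitinib numbered 3 to 5 when a library was left out, against 5: 3 without MCL replicate 3 or ruxolitinib replicate 1. ICAM2 (adjusted p up to 0.11) and ITGB2 (up to 0.177) lost that call.

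Signs turned in 8 results that had not passed. With a library left out, ICAM3 ranged from -0.0364 to 0.13 with TNF-α and from -0.0208 to 0.11 with MCL, SELPLG from -0.0332 to 0.0616 with MCL and from -0.0788 to 0.0255 for MCL against ruxolitinib, ITGA4 from -0.0387 to 0.0588 for both drugs against MCL, and PECAM1 from -0.0487 to 0.0146 for both drugs against ruxolitinib. The non-additive effect of ICAM2 ranged from -0.12 to 0.0605 and that of ITGB2 from -0.0370 to 0.0103. With library totals PECAM1 in both drugs against ruxolitinib was at 0.0278 and the non-additive effect of ITGB2 at 0.0102. That of ICAM2 was at -0.00218 with DESeq2 size factors, -0.0154 with no filter, -0.00213 with DESeq2 and -0.00693 in a fit of the groups compared. The cause was not tested. VCAM1 had no value for both drugs against untreated in a fit of these groups, where its low counts were filtered out; at 0 to 15 counts per library its size there is known to the counting interval given above.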
